A study of Mus musculus with 28 samples.

Results

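Histone H3 lysine 27 acetylation (H3K27ac) was compared between 24h and 4h of TGF-β in NMuMG cells, a mouse mammary gland epithelial line grown here as the E9 subclone. The comparison uses 6 of the 28 samples of the study, 3 replicate ChIP-seq libraries of 4h and 3 of 24h, all given TGF-β at 2 ng/ml together with DMSO, the solvent of the inhibitor used elsewhere in the study. Libraries of untreated cells (0h) and of cells given UO126 at 25 µM 30 min before TGF-β (ERKi) at 4h and 24h, 3 of each, are used to describe the same regions in other conditions, so that 15 libraries with peak lists enter. The labels do not say whether replicates came from separate cultures, so p-values measure the spread between libraries, which may be technical, and all cells derive from 1 subclone.

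TGF-β drives mammary epithelial cells through an epithelial to mesenchymal transition (EMT), in which cell junctions are taken apart, actin stress fibres form and matrix proteins are secreted. Its receptors phosphorylate SMAD proteins within minutes and also feed the MEK-ERK kinases, whose outputs include the AP-1 transcription factors (dimers of JUN and FOS proteins), whereas matrix production and the change of shape take many hours. H3K27ac marks promoters and enhancers in use, and UO126 blocks MEK, the kinase that phosphorylates ERK.

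Peaks of the 15 lists were merged where they overlap into 89050 regions, of which 71100 held a peak in at least 1 of the 6 libraries of 4h and 24h and 31327 in all 6. The level of a region in a library is its pileup, the number of sequenced fragments over the summit of its highest peak, which the deposited fold enrichment and p-value together fix. Of these, 31323 regions with a solved pileup in all 6 libraries were tested with limma on log2 pileup relative to the library's median, so a region absent from 1 library is not in that test and is described by its calls instead. Levels are also given as a percentile by pileup within the library's own list, where 100 is the highest peak and 0 means no peak. A region is named after the protein-coding gene with the nearest start site, which is a statement of distance and not of control, and fewer cells carrying the mark cannot be told apart from less of the mark in each cell.

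The number of peaks was 50445, 56140 and 66385 at 4h and 56759, 61890 and 68050 at 24h, higher at 24h in all 3 pairs of equal replicate number, but the difference of 4576.33 peaks was within the spread of the libraries (exact permutation test, two-sided, p = 0.4, where 3 libraries against 3 cannot give a p below 0.1). Promoters held 18.1% ± 0.907 (SD, n = 3) of the summits at 4h and 17.1% ± 1.15 (SD, n = 3) at 24h, a difference that was likewise within the spread (exact permutation test, p = 0.3). The median pileup was between 39 and 57 fragments per library, lowest in replicate 2 at both times, and the lists hold no read totals, so the depth is unknown. Bases in peaks were shared between libraries of 1 time at a Jaccard index of 0.605 to 0.692 and between times at 0.562 to 0.647. Among mammary epithelial markers, 7 of 8 genes had a peak summit within 2500 bp of a start site in every 4h library and 6 of 8 in every 24h library. Epcam had no such summit in any of the 6, and Cldn7, a claudin of epithelial junctions, had one at 4h and none at 24h. Peaks were nevertheless called nearest to both genes in all 6 libraries. The 1 tested Cldn7 region differed by 0.07 ± 0.35 on the log2 scale (limma adjusted p = 0.999). The 5 tested Epcam regions averaged -0.02 ± 0.20 (limma adjusted p = 0.999). Leukocyte markers had a summit within 2500 bp at 1 or 2 of 10 genes (Cd14, Itgam), fibroblast markers at 1 or 2 of 8, adipocyte markers at 1 or 2 of 6 and endothelial markers at 0 of 8.

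The sequences below come from regions at the head of the comparison and are given on the plus strand of mm9. The first pair is the 201 bp around the summit of the region with the largest rise, in an intron of Myo3b at chr2:69928170-69928370, and of the region with the largest fall, between genes beside Fam136b-ps at chr15:31209937-31210137. Neither holds a match to the AP-1 consensus TGANTCA within these bases.

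Myo3b, higher at 24h: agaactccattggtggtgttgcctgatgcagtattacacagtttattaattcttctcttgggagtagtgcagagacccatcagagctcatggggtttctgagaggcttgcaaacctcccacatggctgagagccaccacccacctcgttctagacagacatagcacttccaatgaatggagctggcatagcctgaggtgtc
Fam136b-ps, lower at 24h: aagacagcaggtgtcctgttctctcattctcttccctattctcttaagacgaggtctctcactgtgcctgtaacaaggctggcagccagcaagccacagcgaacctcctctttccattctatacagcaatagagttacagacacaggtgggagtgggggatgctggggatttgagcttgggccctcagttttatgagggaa

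The next sequences are 101 bp around such a match, which stands in capitals, in regions named for a large change or, for Myh9, as a call at 4h only. The regions of 4933411K16Rik (chr19:42126380-42126480), Tnc (chr4:63786020-63786120) and Frrs1 (chr3:116551032-116551132) were higher at 24h, that of Ankrd55 (chr13:112868738-112868838) was lower, and that of Myh9 (chr15:77663129-77663229), with 2 matches, was called at 4h and not at 24h. They show that the same 7 letters occur in regions of both directions.

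4933411K16Rik, higher at 24h: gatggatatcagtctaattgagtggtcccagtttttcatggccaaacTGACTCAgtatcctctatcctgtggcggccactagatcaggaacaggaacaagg
Tnc, higher at 24h: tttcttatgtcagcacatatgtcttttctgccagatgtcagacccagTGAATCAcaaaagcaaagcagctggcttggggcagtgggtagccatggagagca
Frrs1, higher at 24h: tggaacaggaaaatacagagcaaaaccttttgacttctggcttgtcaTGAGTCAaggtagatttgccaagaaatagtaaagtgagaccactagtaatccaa
Ankrd55, lower at 24h: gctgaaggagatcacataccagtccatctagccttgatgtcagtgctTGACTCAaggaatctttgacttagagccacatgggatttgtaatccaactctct
Myh9, called at 4h only: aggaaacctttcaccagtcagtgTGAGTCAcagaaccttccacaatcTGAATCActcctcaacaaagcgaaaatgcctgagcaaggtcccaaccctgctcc

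Between 4h and 24h, acetylation rose at 898 of the 31323 tested regions (2.87%) and fell at 407 (1.3%) at an adjusted p below 0.05 (limma, Benjamini-Hochberg). The increases ranged from 0.655 to 2.83 on the log2 scale (median 1.25) and the decreases from -0.677 to -2.29 (median -1.18), against a median of -0.04 over all tested regions. With the replicate number as a block, which the check of the numbers allows, 3457 regions (11.0%) rose and 3929 (12.5%) fell, so the excess of increases is a feature of the fit without the block. All 898 increases and all 407 decreases were also past the threshold with the block. By percentile in place of log2 pileup, 319 regions rose and 26 fell. The counts also moved with single libraries. Without 4h replicate 1, 305 regions rose and 103 fell, without 4h replicate 2, 444 and 234, and without 4h replicate 3, 875 and 147. Without 24h replicate 1, 313 rose and 46 fell, without 24h replicate 2, 1380 and 654, and without 24h replicate 3, 666 and 852, so that decreases were then the more frequent kind.

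The largest increase lay in an intron of Myo3b, which encodes a class III myosin. Its pileup was 17, 14 and 20 fragments in the 3 libraries of 4h and 176, 63 and 165 in those of 24h. The groups did not overlap, which the choice of the region for its rise in these same libraries favours. Among the 24h libraries replicate 2, which has the lowest median pileup of its time, was the lowest. The rise was 7.09-fold (log2 difference 2.83 ± 0.31 SE, limma adjusted p = 0.000592), and the region had no peak in any library of 0h or of ERKi at 4h but a mean percentile of 62.0 ± 22.2 (SD, n = 3) with ERKi at 24h. The local background set beside it by the peak caller rose as well, from a mean of 2.92 fragments at 4h to 25.6 at 24h. Its mean fold enrichment was therefore 4.63 ± 0.956 (SD, n = 3) at 4h and 5.14 ± 0.442 (SD, n = 3) at 24h.

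A region in intron 61.7 kb downstream of the nearest start of Palld, which encodes the actin cross-linker palladin, had 14, 12 and 13 fragments at 4h and 141, 56 and 100 at 24h. This is a 6.95-fold rise (log2 difference 2.80 ± 0.29, limma adjusted p = 0.000315) from a level near the bottom of each list, a mean percentile of 2.73, to one of 76.2. Tenascin C, a matrix glycoprotein of wound edges and tumour stroma, is the nearest gene to a region 104 kb upstream of its start. The Tnc region had 20, 14 and 15 fragments at 4h and 117, 57 and 106 at 24h (log2 difference 2.43 ± 0.28, limma adjusted p = 0.000721). Neither region had a peak at 0h.

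The highest level among the increases was reached at the promoter of 4933411K16Rik on chromosome 19, inside the neighbouring gene Hoga1. Its pileup was 121, 87 and 76 at 4h and 997, 341 and 885 at 24h, a mean percentile of 75.3 that rose to 99.8, in the top of each 24h list (log2 difference 2.82 ± 0.26, limma adjusted p = 0.000121). No library of 0h had a peak there, and the mean percentile with ERKi was 41.8 at 4h and 96.6 at 24h. The other increases of the first 8 lay in introns of Hmcn2 (hemicentin 2, a matrix protein) and Pde4dip (which anchors a phosphodiesterase at the Golgi and centrosome), 275 kb upstream of Tprg and 30.2 kb upstream of Frrs1, with log2 differences of 2.37 to 2.44. In each of the 8, all 24h libraries were above all 4h libraries in pileup. These regions were chosen for their rise in the same libraries, and the share of all tested regions so separated was not counted.

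The largest decrease was found 3.79 kb from Fam136b-ps on chromosome 15, where the pileup was 120, 84 and 135 at 4h and 18, 23 and 30 at 24h. The level fell 4.91-fold (log2 difference -2.29 ± 0.29, limma adjusted p = 0.000892) and had been at a mean percentile of 85.2 at 0h and 81.4 at 4h before 24.4 at 24h. A pair of neighbouring regions on chromosome 19 followed, 18.6 kb upstream of Ermp1 (an endoplasmic reticulum peptidase) and 22.4 kb upstream of Mlana (a melanosome protein). The Mlana region had 468, 399 and 654 fragments at 4h and 95, 221 and 98 at 24h (log2 difference -2.00 ± 0.31, limma adjusted p = 0.00303). It stayed among the upper peaks, at a mean percentile of 83.0 at 24h after 99.9 at 0h and 99.8 at 4h. The mean fold enrichment of the Mlana region was 5.89 at 4h and 5.52 at 24h.

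Upstream of Fermt1, which encodes kindlin 1, an integrin activator of epithelia, the pileup was 98, 67 and 115 at 4h and 17, 31 and 23 at 24h (log2 difference -2.02 ± 0.32, limma adjusted p = 0.00326). The groups did not overlap here either, in a region chosen for its fall in the same libraries. With ERKi the same region was at a mean percentile of 88.8 at 4h and 80.7 at 24h, against 74.4 and 24.6 with DMSO. The gene of the transcription factor RUNX1 was nearest to regions of both directions. One, 211 kb upstream, had 136, 81 and 158 fragments at 4h and 44, 21 and 35 at 24h (log2 difference -1.95 ± 0.26, limma adjusted p = 0.00127). Another, 104 kb upstream, had 20, 10 and 16 at 4h and 93, 45 and 63 at 24h (log2 difference 2.09 ± 0.28, limma adjusted p = 0.00127). The remaining decreases of the first 8 were nearest to Gm12824, Ankrd55 and Slc16a12 (a transporter of the monocarboxylate family), with log2 differences of -1.98 to -2.13.

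**Figure D1:**
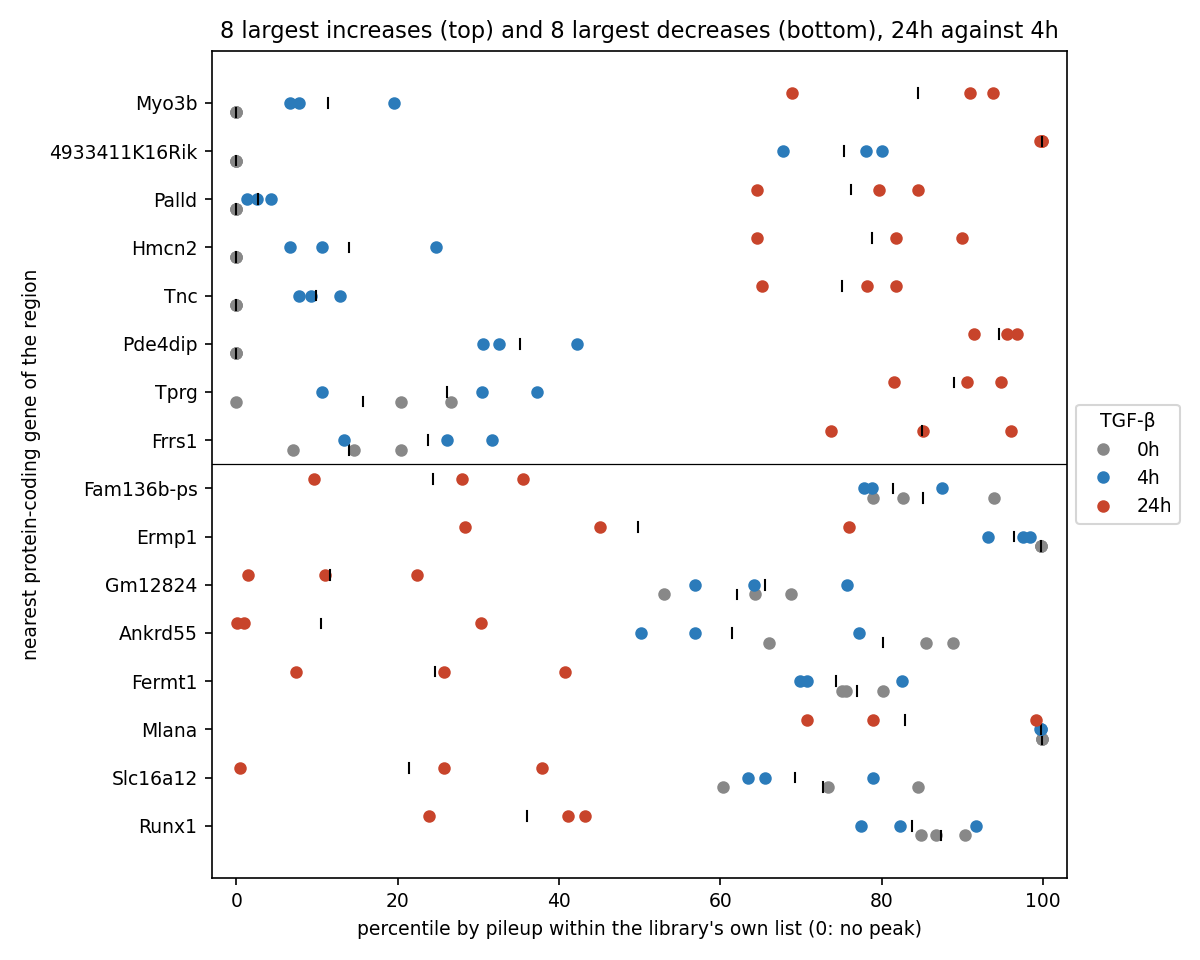
Percentile by pileup within each library's own list (x axis, 0 to 100, where 0 means no peak) for the 8 regions with the largest increases and the 8 with the largest decreases (y axis, by nearest gene), with 1 point per library at 0h, 4h and 24h and a black tick at each mean. In 6 of the 8 regions at the top all points of 0h lie at 0, where 27.7% of all increased and 2.55% of all tested regions had no peak in any 0h library. In the 8 at the bottom the points of 24h lie to the left of those of 4h, as for Fam136b-ps with means of 81.4 at 4h and 24.4 at 24h. The regions were chosen for their change between these 4h and 24h libraries, which favours such a separation, and the share of all tested regions so separated was not counted.

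The regions that changed lay away from promoters. Promoters, from 1000 bp before to 100 bp after a start site, held the summit of 2.78% of the increased regions (25 of 898) and 3.69% of the decreased ones (15 of 407), against 23.2% of all tested regions. Intergenic summits made up 51.0% and 49.1% of the sets against 30.2%, and introns 43.8% and 41.8% against 37.3%. The median distance to the nearest start was 29.1 kb for increases and 19.7 kb for decreases against 6.14 kb for all tested regions. Some 18.4% of the increases and 13.0% of the decreases were more than 100 kb away, against 8.56% of all tested regions.

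**Figure D2:**
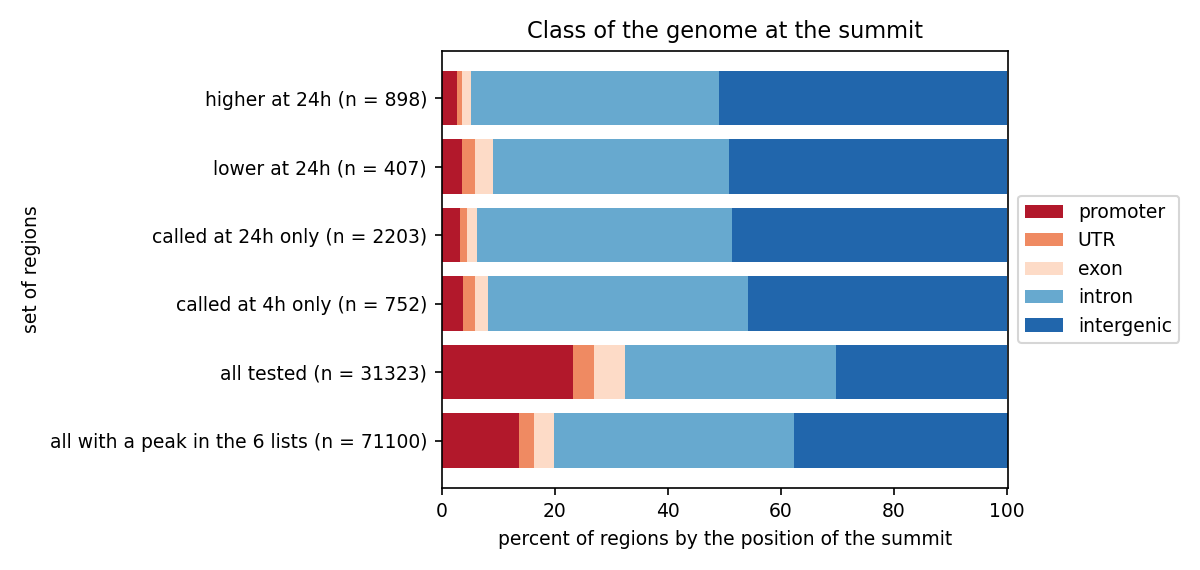
Share of regions (x axis, percent) by the class of the genome at the summit, for each set of regions (y axis) and for all tested regions and all regions with a peak in the 6 lists. Promoters take 2.78 to 3.72% of the 4 sets that differ between 4h and 24h, 23.2% of all tested regions and 13.6% of all regions with a peak.

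In untreated cells the increased regions were lower than the decreased ones. The 0h libraries took no part in the choice of regions, but the choice used the levels at 4h. The median percentile there was 29.9 for increases and 69.6 for decreases, and its part in the order at 0h was not tested. The median percentile of the 898 increased regions was 12.6, 2.26 and 11.9 in the 3 libraries of 0h, 28.5, 25.1 and 37.4 at 4h and 68.8, 61.5 and 75.8 at 24h, and 249 of them (27.7%) had no peak in any 0h library, against 2.55% of all tested regions, which were not chosen for a low level at 4h as these were. The medians were thus lower at 0h than at 4h under each replicate number as well, although a peak had been required of these regions in the libraries of 4h and 24h and not in those of 0h. The 407 decreased regions had medians of 73.1, 66.1 and 79.0 in untreated cells, 65.5, 64.9 and 78.9 at 4h and 29.6, 39.3 and 46.8 at 24h, against 65.9, 64.1 and 66.7 over all tested regions in untreated cells, so the levels of 0h and 4h overlapped and those of 24h lay below both. All 3 libraries of 0h had a peak at 399 of the 407 (98.0%), against 91.2% of all tested regions, which were not chosen for a level at 4h above that of 24h.

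The pileup of a region and the local background that the peak caller set beside it moved together. Over the increased regions the median pileup was 28.3 at 4h and 77.7 at 24h, the median local background 4.54 and 11.2 fragments, and the median fold enrichment, their ratio, 4.98 and 6.32. Over the decreased regions the median pileup was 82.3 and 33.7, the background 14.2 and 6.05 and the fold enrichment 5.57 and 4.73. By log2 fold enrichment in place of pileup, 30 regions rose and 17 fell. Of the 66 named tested regions, 4 were past the threshold by log2 fold enrichment and 8 had the opposite sign. Whether the background holds the mark itself in broad domains was not tested.

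**Figure D3:**
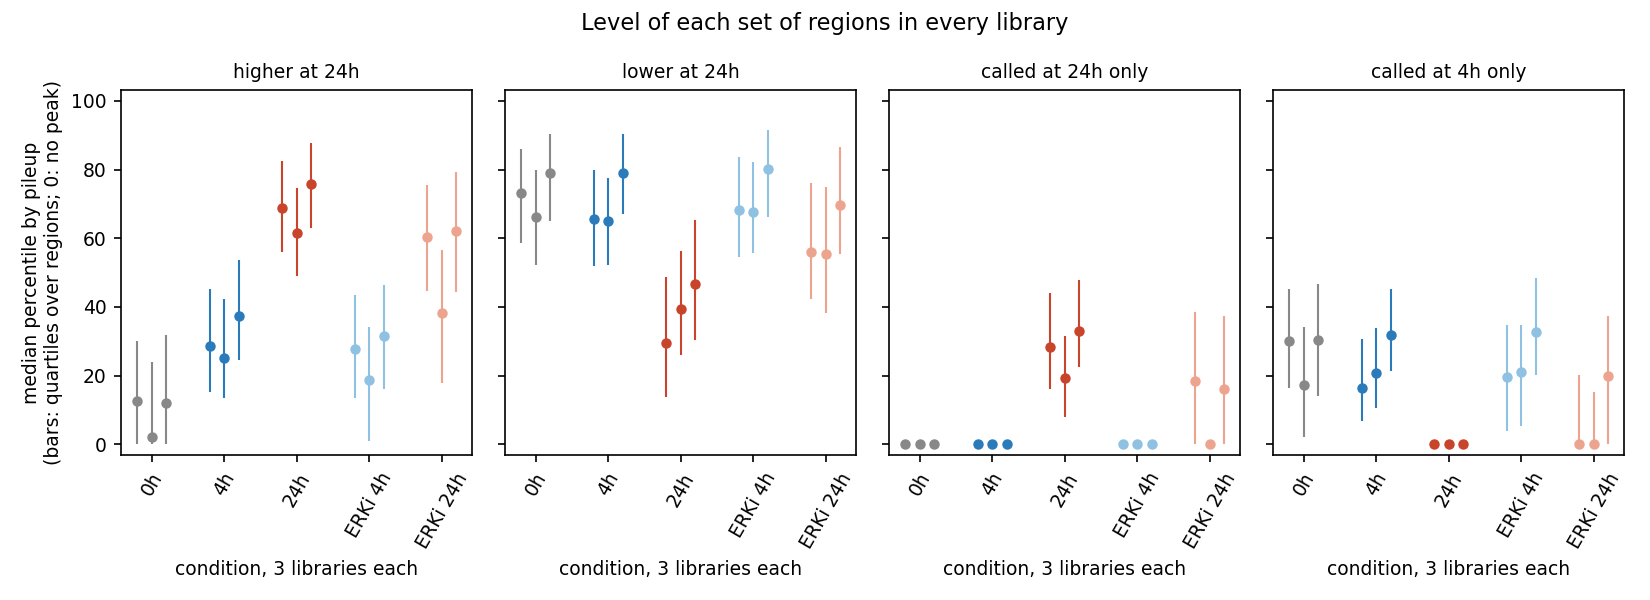
Median percentile by pileup (y axis, 0 to 100, where 0 means no peak) of each set of regions in each of the 15 libraries (x axis, 3 points per condition), with bars from the first to the third quartile over regions. The increased regions have medians of 2.26 to 12.6 at 0h, 25.1 to 37.4 at 4h and 61.5 to 75.8 at 24h, with ERKi at 24h between 38.2 and 62.1, and the 4h and 24h points of each panel were used to choose its regions.

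Regions with a peak at 1 of the times make up a second view of the step, which the test over common regions leaves out. All 3 libraries of 24h and none of 4h had a peak at 2203 of the 71100 regions (3.1%), and the reverse held at 752 (1.06%). With 1 library left out the rule asks for fewer libraries, so these counts can then only stay or rise. Without 24h replicate 2 there were 5524 regions called at 24h only and 1213 at 4h only. Without 4h replicate 1, 4h replicate 2 or 24h replicate 3, the regions called at 4h only numbered 1625, 1419 and 1391. The regions called at 24h only were weak peaks, with a median pileup of 25.7, a fold enrichment of 4.54 and a median percentile of 26.7 at 24h, and for those of 4h only the values were 22.7, 4.04 and, at 4h, 21.8. Of the 2203, 1979 (89.8%) had no peak in any library of 0h, close to the 89.3% of all 16332 regions with no peak at 4h and a peak in at least 1 library of 24h. Of the 752, 528 (70.2%) had a peak in all 3 libraries of 0h, against 88.8% of all 35758 regions with a peak in all 3 libraries of 4h.

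The regions of this kind with the highest percentile sat on a high local background, and at the time without a peak neither their pileup nor their background is known. At 24h they were found in introns of Pi4k2a (a phosphatidylinositol kinase), Sri (the calcium-binding protein sorcin), Pmepa1 (a TGF-β target that restrains SMAD signalling) and Ubtd1, and 66.9 kb upstream of Tspan2 (a tetraspanin). The Pi4k2a region had 434, 175 and 278 fragments at 24h over a mean background of 147, a mean fold enrichment of 1.95. The Pmepa1 region had 288, 150 and 233 over 165, a mean fold enrichment of 1.37, and had no peak in any library of the other 4 conditions.

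At 4h only, the first regions were nearest to Junb (an AP-1 subunit), Tgif1 (a co-repressor of SMADs), Myh9 (the heavy chain of non-muscle myosin), Glis2 (a zinc finger factor) and Tchp (a keratin-binding protein). The Junb region, 1.17 kb upstream, had 237, 154 and 231 fragments over a mean background of 121 at 4h, and its mean percentile, 96.8 at that time, stood at 95.5 in untreated cells and 96.5 with ERKi at 4h. The Myh9 region, in an intron 9.27 kb downstream of the start, had 167, 92 and 183 fragments at 4h and stood at a mean percentile of 91.7 at 0h and, with ERKi, of 82.3 at 4h and 85.8 at 24h. All 5 had a mean percentile above 0 in untreated cells, from 79.1 to 95.5.

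The increases involved 729 nearest genes and the decreases 338, of which 30 had both, among them Runx1, Jak2, Sox4 and Vegfa, named here after their values were seen. Ccbe1 (a secreted protein of lymphatic growth), Tns3 (tensin 3, of focal adhesions), Jag1 (a Notch ligand), Wisp1 (a matricellular CCN protein), Asb7, Has2 (a hyaluronan synthase), Cdk14 (a cyclin-dependent kinase) and Tnc each had 4 increased regions. The share of a gene's tested regions differed widely between them. Ccbe1 had 4 increases among 5 tested regions and 5 further regions called at 24h only, whereas Tns3 had 4 among 32 and Jag1 4 among 22.

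The strongest Ccbe1 region, 25.5 kb upstream, had 36, 20 and 31 fragments at 4h and 159, 86 and 168 at 24h (log2 difference 2.19 ± 0.26, limma adjusted p = 0.000743). The strongest Wisp1 region, 8.19 kb upstream, had 45, 41 and 52 at 4h and 285, 107 and 251 at 24h (log2 difference 2.07 ± 0.26, limma adjusted p = 0.000892). Neither had a peak at 0h. A Jag1 region 342 kb upstream rose by pileup (41, 20 and 27 against 197, 95 and 173, log2 difference 2.36 ± 0.27, limma adjusted p = 0.000644) while its log2 fold enrichment differed by -0.09. At Has2 the region with the largest rise was 70.5 kb upstream, with 31, 28 and 21 fragments at 4h and 103, 53 and 85 at 24h (log2 difference 1.52 ± 0.29, limma adjusted p = 0.0084), and the ERKi step was 1.50 there.

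Among the decreases, Il33 (an alarmin cytokine of epithelial cells) had 5 regions, Ankrd55 4, and Slc16a12, Nnmt (nicotinamide N-methyltransferase), Dio3 (a deiodinase that inactivates thyroid hormone), Adap1, Upf2 (a factor of nonsense-mediated decay) and Otub1 (a deubiquitinase) 3 each, as did Itga1 and Tgfbr3, which follow Otub1 by the sum of their differences. The strongest Il33 decrease was at its promoter, 0.26 kb upstream of the start, with 190, 171 and 241 fragments at 4h and 66, 120 and 67 at 24h (log2 difference -1.33 ± 0.28, limma adjusted p = 0.0135). Its mean percentile of 98.5 in untreated cells and 96.0 at 4h compares with 71.1 at 24h, or 80.9 at that time with ERKi. Dio3 likewise fell at its promoter, from 117, 50 and 71 fragments to 31, 31 and 21 (log2 difference -1.49 ± 0.31, limma adjusted p = 0.012). The strongest Nnmt region, in an intron of Zbtb16, fell from 102, 72 and 132 to 25, 29 and 30 by pileup (log2 difference -1.86 ± 0.28, limma adjusted p = 0.00237), whereas its log2 fold enrichment differed by 0.33.

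When the regions of a gene were averaged so that each gene counts 1 time, 42 of 12556 genes rose (0.335%) and 7 fell (0.0558%), at an adjusted p below 0.05 (limma). With the replicate block, 1013 genes rose (8.07%) and 1060 fell (8.44%). Without 4h replicate 1, 4h replicate 2 or 24h replicate 1 no gene was past the threshold, with 1026, 1238 and 1028 genes at an unadjusted p below 0.05, and without 24h replicate 2 there were 119 increases and 34 decreases. Without 24h replicate 3 there were 11 and 2, and without 4h replicate 3, 31 and 2. Of the genes with the most changed regions, Ccbe1 rose as a whole (log2 difference 1.42 ± 0.18, adjusted p = 0.0227 in limma), while Nnmt (-1.50 ± 0.22, adjusted p = 0.0384 in limma) and Otub1 (-0.92 ± 0.15, adjusted p = 0.0498 in limma) fell. Tnc was at 0.66 ± 0.17 (limma adjusted p = 0.129, with the replicate block 0.00403) and Tns3 at 0.01 ± 0.17 over its 32 regions (limma adjusted p = 0.999). Genes past the threshold and named after their values were seen include Col7a1 (the collagen of anchoring fibrils, 1.83 ± 0.23), Wnt2 (a secreted WNT ligand, 1.98 ± 0.24), Has3 (another hyaluronan synthase, 1.60 ± 0.22), Pvrl4 (nectin 4, an adhesion protein, 1.80 ± 0.18), Cttn (cortactin, of branched actin, 1.23 ± 0.18) and Foxc2 (a forkhead factor of EMT, 1.19 ± 0.19), all higher at 24h. Col7a1, Wnt2, Has3 and Pvrl4 had 1 tested region each, so their gene value is that of 1 region. Cttn had 3 tested regions, of which 2 rose, and Foxc2 had 2, of which 1 rose. Itga1, the α1 subunit of a collagen-binding integrin, was lower (-0.96 ± 0.15, adjusted p = 0.0451 in limma).

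Lists of genes by role were read against the 2.87% of regions that rose and the 1.3% that fell in all, or 11.0% and 12.5% with the replicate block, and against the median of -0.04. At genes of epithelial junctions and polarity, 1 of 100 regions rose and 1 fell, 8 and 25 with the block, and the median was -0.16. At the regulators of epithelial identity, 1 of 84 rose and 1 fell, 7 and 19 with the block, with a median of -0.13. The decrease of the junction list lay 112 kb upstream of Tjp1, which encodes the tight junction protein ZO-1, with 151, 96 and 162 fragments at 4h and 67, 58 and 87 at 24h (log2 difference -0.97 ± 0.22, limma adjusted p = 0.019).

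The single increase of the junction list was at the promoter of Cldn4, a claudin, with 53, 29 and 53 fragments at 4h and 184, 81 and 178 at 24h (log2 difference 1.64 ± 0.26, limma adjusted p = 0.00336). It moved against the direction of the list's median and had no peak at 0h. Ehf, an epithelial ETS factor, had a decrease 22.0 kb upstream (log2 difference -0.99 ± 0.27, limma adjusted p = 0.0475), where the pileups of 105, 66 and 154 at 4h and 54, 39 and 70 at 24h overlap before the library medians are set equal. The increase of the regulator list lay 1140 kb from Gata3, the luminal transcription factor, its nearest gene by distance alone.

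At transcription factors of EMT, 9 of 117 regions rose (7.69%) and 3 fell, 22 and 11 with the block, with a median of 0.07. The increases were nearest to Ets1, Foxc2, Hmga2, Runx1, Runx2 and Sox4, 6 genes of 15 with a tested region. No tested region nearest to Snai1, Snai3, Twist2, Zeb1, Zeb2, Tcf3 or Tcf4 was past the threshold. A further 20 regions of the list were called at 24h only and 2 at 4h only, where all regions gave 2203 and 752. The list's regions with a peak in the 6 lists were not counted, so no share stands beside these numbers. Every list of genes by role had more regions called at 24h only than at 4h only. The counts were 19 and 2 for matrix genes and 18 and 4 for TGF-β and BMP signalling. Zeb1 and Tcf4 each had 3 regions called at 24h only. An Ets1 intron had 14, 14 and 18 fragments at 4h and 47, 32 and 57 at 24h (log2 difference 1.50 ± 0.28, limma adjusted p = 0.00684) and no peak at 0h. A Foxc2 region 71.4 kb downstream had 21, 19 and 31 at 4h and 74, 60 and 78 at 24h (log2 difference 1.57 ± 0.28, limma adjusted p = 0.00553). Hmga2, an architectural DNA-binding protein, had a region 106 kb upstream that rose by pileup (log2 difference 1.57 ± 0.37, limma adjusted p = 0.0242), with 47, 15 and 60 fragments at 4h and 139, 59 and 145 at 24h, while its log2 fold enrichment differed by -0.30.

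Matrix and matricellular genes had 8 increases among 145 regions (5.52%) and no decrease, 40 and 9 with the block, with a median of 0.19. The marker lists of fibroblasts, with a median of 0.35 over 12 regions, and of endothelial cells, with 0.39 over 10, lay higher still, and their part in the matrix result was not tested. The 8 lay at Tnc, Thbs1 and Ltbp1 alone, 3 genes of 25 with a tested region. Thrombospondin 1, which can activate latent TGF-β, was nearest to a region with 54, 19 and 45 fragments at 4h and 155, 52 and 153 at 24h (log2 difference 1.54 ± 0.35, limma adjusted p = 0.0192), where 24h replicate 2 lies within the range of 4h in raw pileup and the log2 fold enrichment of the Thbs1 region differed by -0.09. In Ltbp1, which binds latent TGF-β to the matrix, an intron rose by 1.25 ± 0.23 in log2 pileup (limma adjusted p = 0.00733) and did not rise by log2 fold enrichment (-0.00232). The run of calls at 24h only with the most regions, 7 over 120 kb, lay at Col6a3 on chromosome 1, which encodes a collagen VI chain.

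Integrins and adhesion genes had 11 increases among 118 regions (9.32%) and 3 decreases, 24 and 14 with the block, with a median of 0.03. The increases were nearest to Cd44, Fermt2, Itga2, Itgb1, Itgb3, Itgb5, Ncam1 and Parvb. An Itgb3 intron had 27, 24 and 38 fragments at 4h and 168, 44 and 186 at 24h (log2 difference 1.90 ± 0.38, limma adjusted p = 0.00963), and Itgb3 encodes the β3 integrin of fibronectin and vitronectin receptors. All 3 decreases were at Itga1, the strongest 106 kb upstream with 113, 72 and 112 at 4h and 25, 38 and 40 at 24h (log2 difference -1.56 ± 0.29, limma adjusted p = 0.00723). Itga2 encodes another collagen-binding α subunit and lies on the same chromosome, and its region 14.3 kb upstream rose by pileup (54, 32 and 47 against 87, 85 and 123, log2 difference 1.13 ± 0.25, limma adjusted p = 0.0196) with a difference of -0.09 in log2 fold enrichment.

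Genes of the actin cytoskeleton had 8 increases among 146 regions (5.48%) and no decrease, 30 and 17 with the block, at Palld, Pdlim5, Cald1, Msn and Myh9, with a median of 0.00. Caldesmon, an actin-binding regulator of contractility, had an intron with 22, 18 and 24 fragments at 4h and 60, 33 and 63 at 24h (Cald1, log2 difference 1.20 ± 0.28, limma adjusted p = 0.0218). In Msn, which encodes moesin, a linker of actin to the membrane, an intron rose by 1.13 ± 0.26 in log2 pileup (limma adjusted p = 0.0236) and differed by -0.21 in log2 fold enrichment. Myh9 therefore had both an increase and, above, a region called at 4h only.

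TGF-β and BMP signalling genes stood near the background, with 5 increases (2.16%) and 3 decreases among 232 regions, 24 and 33 with the block, and a median of -0.10. The increases were nearest to ligands, Bmp2, Inhba, Tgfb2 and Tgfb3, at 120, 833 and 179 kb for the first 3, and the decreases were all at Tgfbr3, the co-receptor betaglycan. A Tgfbr3 intron had 69, 48 and 106 fragments at 4h and 37, 29 and 25 at 24h (log2 difference -1.27 ± 0.29, limma adjusted p = 0.021), with 0.0985 by log2 fold enrichment. The Bmp2 region had 16, 13 and 18 at 4h and 41, 24 and 59 at 24h (log2 difference 1.28 ± 0.29, limma adjusted p = 0.0209).

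AP-1 and immediate-early genes were also few, with 2 increases (1.2%) and 2 decreases among 167 regions, 19 and 28 with the block. Both increases were nearest to Myc, the first at 671 kb, and the decreases to Ier5 and Mafk. Genes of ERK feedback had 10 increases (8.33%) and 4 decreases among 120 regions, 21 and 12 with the block, with a median of -0.01. Most of this list are negative regulators of ERK, but it also holds the ETS factors Etv4 and Etv5. The increases were nearest to the dual-specificity phosphatases Dusp1, Dusp5, Dusp7 and Dusp10, to Rasa1, a RAS GTPase-activating protein, and to Spred2, and the decreases to Dusp4, Errfi1, Spry1 and Spry4. A Dusp1 region 10.1 kb downstream had 26, 16 and 18 fragments at 4h and 78, 34 and 94 at 24h (log2 difference 1.65 ± 0.32, limma adjusted p = 0.00843). A Dusp4 region 229 kb upstream had 90, 48 and 95 at 4h and 26, 24 and 32 at 24h (log2 difference -1.49 ± 0.28, limma adjusted p = 0.00713). This decrease is 1 of 8 tested Dusp4 regions, whose mean difference was 0.03 ± 0.15 (limma adjusted p = 0.999), and 3 further Dusp4 regions were called at 24h only.

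Growth factors and receptors had 10 increases (5.29%) and 5 decreases among 189 regions, 41 and 39 with the block, with a median of -0.03. Fgf2, a fibroblast growth factor, had an intron with 37, 23 and 36 fragments at 4h and 121, 69 and 127 at 24h (log2 difference 1.67 ± 0.26, limma adjusted p = 0.00294). Wnt7a had one with 15, 15 and 16 at 4h and 52, 44 and 46 at 24h (log2 difference 1.59 ± 0.26, limma adjusted p = 0.00408). In both regions the times did not overlap, but they were named for the size of their change in these libraries. Tgfa, an EGF receptor ligand, rose 46.5 kb upstream (log2 difference 1.50 ± 0.30, limma adjusted p = 0.00956), and the decreases were nearest to Fgf1, Fgfr2 and Vegfa. Cell cycle and cytostasis genes had 3 increases (2.46%) and 2 decreases among 122 regions, 14 and 20 with the block, with a median of -0.11. The decreases were nearest to Ccnd1 (cyclin D1, -1.17 ± 0.30, limma adjusted p = 0.0367) and Gadd45a (-1.27 ± 0.33, limma adjusted p = 0.0416), and the increases to Cdkn2a, Bcl2l11 and Mki67.

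The genes that the study itself names, for their expression or their acetylation, had 15 increases (8.11%) and 1 decrease among 185 regions, 42 and 36 with the block, but the study chose them on these samples, so this count is not independent evidence of a direction. The increases were at Hmga2, Itga2, Itgb3, Jag1, Jak2 and Ltbp1. Jak2, a cytokine receptor kinase, had the region with the smallest standard error of those named, 22.6 kb upstream, with 174, 114 and 148 fragments at 4h and 428, 305 and 414 at 24h (log2 difference 1.36 ± 0.16, limma adjusted p = 0.000681). Of the marker lists of other cell types, endothelial markers had 2 increases among 10 regions, both nearest to Emcn, and the leukocyte, adipocyte and fibroblast lists had none among 4, 16 and 12. With the replicate block, 4 endothelial regions rose and 0 fell (median 0.39), 4 fibroblast regions rose and 1 fell (median 0.35), 1 leukocyte region rose and 0 fell (median 0.03), and 2 adipocyte regions rose and 1 fell (median 0.05). These regions belong to 6 endothelial and 3 fibroblast genes, and no endothelial marker had a peak summit within 2500 bp of its start. The mammary epithelial markers had no change past the threshold among 39 regions, 1 increase and 6 decreases with the block, and a median of -0.12.

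**Figure D4:**
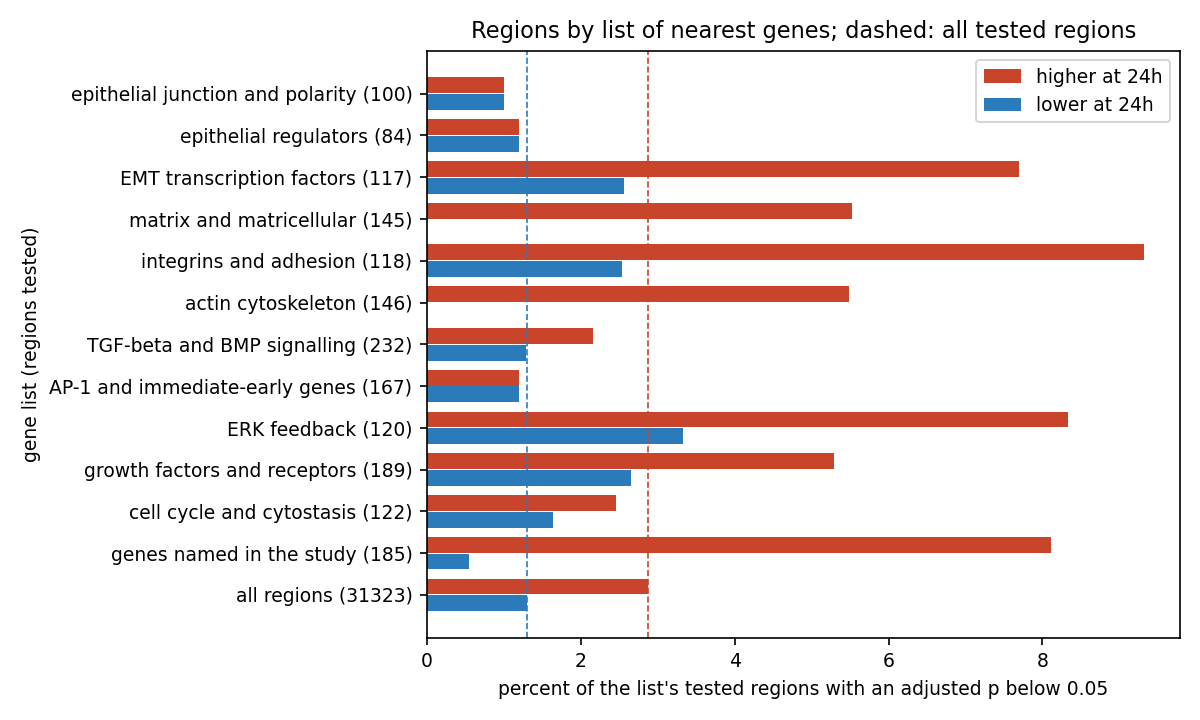
Share of each list's tested regions (x axis, percent) that were higher (red) or lower (blue) at 24h at an adjusted p below 0.05, with the number of tested regions beside each list (y axis, marker lists not drawn) and dashed lines at the 2.87% and 1.3% of all tested regions. Integrins and adhesion (9.32%), ERK feedback (8.33%) and EMT transcription factors (7.69%) have the longest red bars of the lists drawn and not chosen by the study, and the AP-1 and immediate-early genes one of 1.2%.

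Some of the changed regions lay in runs. Counting 3 or more regions of 1 set with at most 50 kb between neighbouring summits, 83 of the increased regions fell into 25 runs and 39 of the decreased ones into 12, while the regions called at 24h only formed 70 runs of 233 regions and those of 4h only 3 runs of 9. Runs were not counted for other sets of tested regions, so these numbers have no background beside them. A run begins and ends at regions of its own set, so a high share within it follows in part from its definition. The run of increases with the most regions, on chromosome 19 from 42090137 to 42174796, spans Ankrd2, 4933411K16Rik, Morn4 and Pi4k2a, where 7 of 10 tested regions rose, by 0.93 to 2.82 on the log2 scale. At Ccbe1 4 of 4 tested regions in the run rose, as did 4 of 4 at Wisp1 and 4 of 4 at Tns3, and 4 of 8 rose between Rcl1 and Jak2. Over all tested regions nearest to the gene, 4 of 5 rose at Ccbe1, 4 of 7 at Wisp1 and 4 of 32 at Tns3.

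The run of decreases with the most regions covers Ranbp6 and Il33 on chromosome 19, from 29914891 to 30000163, where 6 of 9 tested regions fell, by -0.97 to -1.33. It lies on the same chromosome as the 3 of 3 regions between Ermp1 and Mlana (-1.88 to -2.24) and the increases at Jak2. Chromosome 19 held 3.99% of all tested regions, 6.01% of the increases and 9.34% of the decreases, whereas chromosome 14 held 2.85%, 0.557% and 1.72%. Regions of 1 run share their neighbourhood and are not independent of each other.

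The AP-1 consensus TGANTCA, searched on both strands in the 401 bp around each summit, was found in 19.7% of the increased and 10.8% of the decreased regions, against 12.2% of all tested regions. Outside promoters the shares were 19.4%, 11.0% and 14.1%. It was found in 25.2% of the regions called at 24h only and 11.7% of those called at 4h only, against 15.8% of all regions with a peak in the 6 lists. The share was thus higher in both sets of 24h than in the matching sets of 4h. Of the regions named here, 6 of 43 increased and 3 of 23 decreased ones hold it, among them Tnc and Ankrd55 printed above.

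The RUNX consensus TGTGGTT was found in 9.35% of the increased and 7.86% of the decreased regions, against 6.78% of all tested regions, and in 11.3% of the regions called at 24h only and 7.71% of those called at 4h only, against 8.55% of all regions with a peak in the 6 lists. Outside promoters it was found in 9.39% of the increased and 7.91% of the decreased regions, against 7.48% of all tested regions. The SMAD-binding letters GTCTGG were in 24.9% and 26.3%, against 25.3%, and in 25.6% and 24.5%, against 25.2%. The forkhead consensus TGTTTAC was in 3.9% of the increased and 7.62% of the decreased regions, against 4.87%, and in 6.13% and 7.45% of those called at 24h only and at 4h only, against 5.76%. The GATA consensus AGATAA was in 19.5% of the increased and 19.7% of the decreased regions, against 14.4% of all tested regions. For CACCTG, the E-box of ZEB and SNAI factors, the shares were 25.4% and 29.2%, against 26.4%. Further motifs were searched in the same way and are not given here. Base composition differs beside these shares, with a GC content of 47.1% in increased, 49.0% in decreased and 53.8% in all tested regions, and its part in them was not tested. A match is a run of letters and not a bound site.

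The same step of time was measured in separate libraries under ERKi, which took no part in the choice of regions. Of the 898 increased regions, 628 had a peak in all 12 libraries of 4h and 24h, and 600 of these (95.5%) were also higher at 24h with ERKi, against 50.1% of all 28642 regions so covered. Their median log2 step was 0.82 with ERKi and 1.24 with DMSO. Of the 407 decreased regions, 389 were so covered, 41 of them (10.5%) were higher at 24h with ERKi, and the medians were -0.47 with ERKi and -1.16 with DMSO. The DMSO steps were chosen to be large and the ERKi steps were not, so the medians are not a test of the difference.

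The difference of the steps was tested as an interaction over the 12 libraries. Without the replicate block, limma called no region (0 of 28642, 0.0%), with 1538 at an unadjusted p below 0.05. Whether ERKi libraries pair by replicate number, as the block assumes, was not checked. With the block it called 1427 (4.98%), of which 115 were among the 628 increased regions, 114 with the larger step under DMSO, and 167 among the 389 decreased regions, all with the larger fall under DMSO. These regions were chosen for a large DMSO step, which itself enters the interaction, so the direction of these counts follows in part from the choice. Of all 1427, the step was higher under DMSO at 612 and lower at 815. Without ERKi 4h replicate 1, whose peak list carries a library number out of the order of the others, 831 were called with the block.

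Of 46 named regions with a peak in all 12 libraries, 18 were past the threshold with the block, 6 increases and 12 decreases, all with the smaller step under ERKi, and 16 of them without ERKi 4h replicate 1. They too had been named for a large step with DMSO, which favours this direction. The Foxc2 region rose by 1.57 with DMSO and differed by 0.12 with ERKi. At Fermt1 the steps were -2.02 and -0.41, at the Runx1 region 211 kb upstream -1.95 and -0.38, and at the Otub1 region -1.31 and 0.01. Other regions had steps of similar size in both, such as Has2 (1.52 and 1.50), Mlana (-2.00 and -1.86) and Ermp1 (-2.24 and -2.54), and missing the threshold does not show that these steps are alike. Of the regions called at 24h only, 69.4%, 25.1% and 66.8% had a peak in replicates 1, 2 and 3 of ERKi at 24h, and 528 of 2203 (24.0%) in all 3. Over all regions with a peak in the 6 lists the shares were 67.6%, 56.0% and 70.9%, and 52.5% in all 3. Replicate 2 called the fewest regions of ERKi at 24h, 41613 against 52995 and 57291, so the share in all 3 rests largely on that library.

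**Figure D5:**
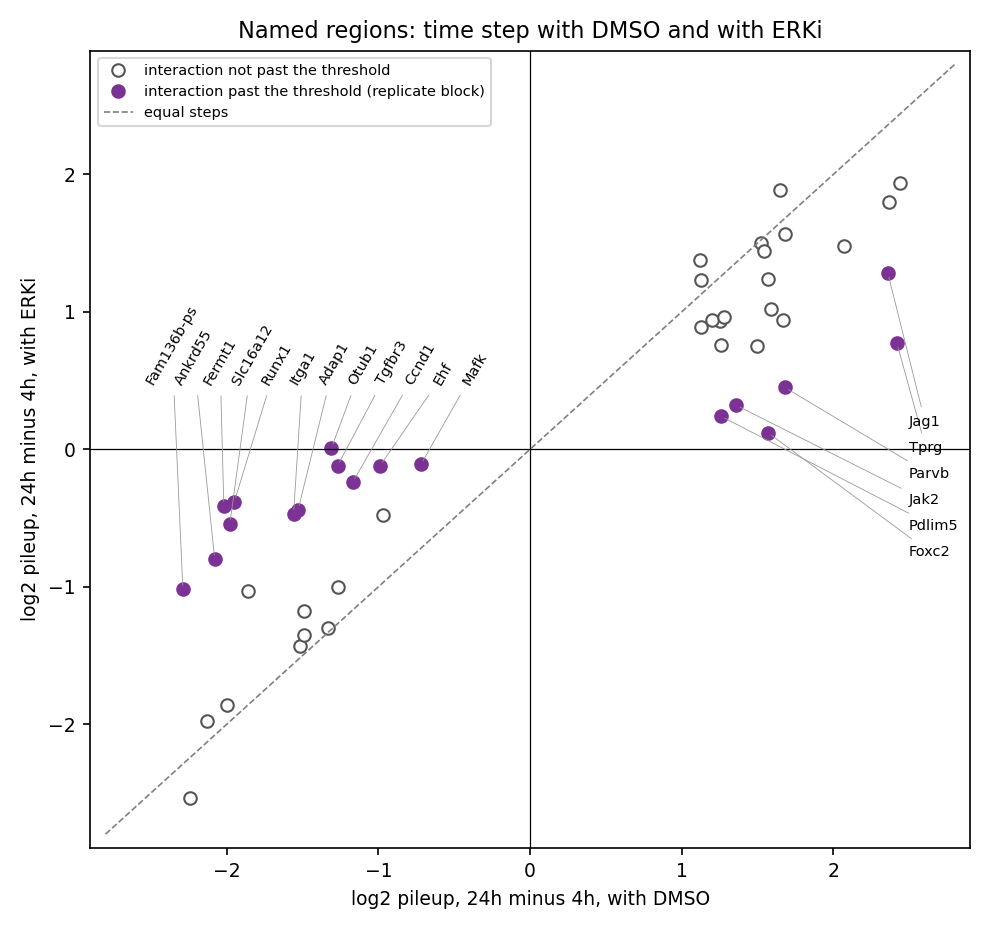
Difference in log2 pileup between 24h and 4h with DMSO (x axis) and with ERKi (y axis) for the 46 named regions with a peak in all 12 libraries. Filled points are the 18 past the threshold for the interaction with the replicate block, and they lie between the horizontal axis and the dashed line of equal steps, apart from Otub1, with steps of -1.31 and 0.01.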

How the data were processed

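H3K27ac ChIP-seq peak lists of 15 libraries were used, and the 10 RNA-seq and 3 input samples of the series were not analysed here. Libraries were grouped by the sample titles. The authors mapped the reads with bowtie (mm9) and ran MACS2 on every library separately, both at default settings, and the control used for the peaks is not given in the sources used here. Deposited columns are the fold enrichment, a ratio of pileup over local background in that library, the significance as -log10 of the p-value and of the q-value, and a score that repeats the latter and was not used. No value is normalized between libraries.

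Pileup and local background were solved from fold enrichment and -log10 p, the fold taken as pileup plus 1 over background plus 1 and the p as a Poisson tail, to within 0.005 for all but 7 of 359669 peaks of the 6 lists. Overlapping peaks were merged, and a peak overlapping a region by 1 bp or more called it. Genes, start sites and sequence came from NCBIM37 (mm9) with GENCODE vM1, and a summit in several classes took the first of promoter, UTR, exon, intron and intergenic. Main tests were limma 3.58.1 fits with a mean-variance trend and Benjamini-Hochberg adjustment, checked on simulated data, and two-sided exact permutation tests over libraries. The simulated libraries held no replicate effect, so that check does not cover the fits with a replicate block or the choice between fits. Replicate numbers come from the titles. Libraries of equal number at 4h and 24h with DMSO deviated together from their group means (correlations 0.497, 0.596 and 0.759), so the fit with a replicate block is given beside counts that it moves. ERKi libraries were not checked in this way. The lists hold no read totals, and 3 libraries per time set the precision.

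Named are the 8 largest increases and decreases past the threshold, the 5 regions per direction called at 1 time with the highest percentile, the 8 genes per direction with the most changed regions (ties broken by the summed log2 difference), and up to 4 genes per list by size of change, with the genes named by the study. The comparison, the members and the gene lists were chosen with earlier results of these data known, and 1 gene of a list is not reported here. Alternatives were another scale, the replicate block, filters, merging, stricter peaks, another rule for a call or for the nearest gene, and each library left out in turn, and the block without ERKi 4h replicate 1 was chosen after seeing the data. Python 3.11.15 was used with NumPy 2.4.6, SciPy 1.17.1, pandas 2.3.3, pysam 0.24.0 and matplotlib 3.10.9, and R 4.3.3.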

Additional observations from a re-analysis of the deposited data

Results flagged for a closer look

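The time step of 18 named regions differed between DMSO and ERKi in the limma interaction with the replicate block (adjusted p below 0.05), and none of them was past the threshold without the block (adjusted p from 0.396 to 0.96). The values below are the step with DMSO minus the step with ERKi on the log2 scale, and a further 28 named regions with a peak in all 12 libraries were tested and were not past it. Among the regions that rose with DMSO, the difference was 1.68 at Tprg, 1.47 at Foxc2, 1.26 at Parvb, 1.11 at Jag1, 1.07 at Jak2 and 1.04 at Pdlim5. Among those that fell, it was -1.59 at Fermt1, -1.54 at the Runx1 region 211 kb upstream, -1.41 at Slc16a12, -1.29 at Otub1, -1.26 at Ankrd55, -1.25 at Fam136b-ps, -1.13 at Tgfbr3, -1.07 at Adap1, -1.07 at Itga1, -0.90 at Ccnd1, -0.84 at Ehf and -0.58 at Mafk. In all 18 the step was smaller under ERKi, as it also was without ERKi 4h replicate 1, when 16 remained past the threshold. The regions had been named for a large step with DMSO, and the part of that choice in the difference was not tested. The block also assumes that ERKi libraries pair by replicate number, which was not checked.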

How the results depend on the processing

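Against 898 increases and 407 decreases, the counts were 3457 and 3929 with the replicate block, 319 and 26 by percentile, 30 and 17 by log2 fold enrichment, 430 and 180 by log2 of -log10 p, 2906 and 878 with regions in at least 3 of the 6 lists and missing peaks at the lowest pileup, and 91 and 24 with a mean pileup above the median. Quantile normalization (904 and 461) and regions merged over the 6 lists (1010 and 404) gave counts within 1.5 times. Leaving out 1 library gave 305 to 1380 increases and 46 to 852 decreases. Regions called at 24h only and at 4h only numbered 1022 and 392 with -log10 q of at least 10 and 478 and 362 among the 20000 top peaks of each list, and 2408 to 5524 and 836 to 1625 with 1 library left out. Leaving out a library can only keep or raise these calls, since the rule then asks for fewer libraries. Genes that rose and fell numbered 1013 and 1060 with the replicate block, 185 and 46 with the nearest gene of any type, 0 and 0 in limma by log2 fold enrichment (1051 at an unadjusted p below 0.05), and 0 to 119 and 0 to 34 with 1 library left out. The interaction with ERKi called 1427 regions with the replicate block and 831 with the replicate block but without ERKi 4h replicate 1, and 0 in limma by log2 fold enrichment (1536 at an unadjusted p below 0.05) or with any DMSO library left out (1293 to 1909 at an unadjusted p below 0.05). The difference in peaks ranged from 970.5 to 8940.5 and that in promoter share from -0.423 to -1.59 points with 1 library left out. Of the 66 named tested regions, 66 were past the threshold with the replicate block, 63 by quantile normalization, 44 by -log10 p, 36 by percentile, 4 by fold enrichment and 38 to 65 with 1 library left out. By log2 fold enrichment 8 had the opposite sign, at Jag1 (-0.0876), Nnmt (0.33), Hmga2 (-0.30), Thbs1 (-0.0941), Ltbp1 (-0.00232), Msn (-0.21), Tgfbr3 (0.0985) and Itga2 (-0.0938). Apart from the filters, which change the regions tested, and the calls with 1 library left out, the cause of these changes was not tested.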
